A study of Schizosaccharomyces pombe with 4 samples.

Results

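The level of newly made histone H3 was described along the arms of chromosome 2 in wild-type cells of the fission yeast Schizosaccharomyces pombe, from 1 Agilent 60-mer tiling array. The tiles were those centred between 1000011 and 3049820 in the array's coordinates, without the centromere (1598911 to 1649170) and without the mating-type tiles (2130261 to 2140120), which left 39794 of the 43993 tiles of the array. They form a left stretch of 11978 tiles, a middle stretch of 9622 between the centromere and the mating-type tiles, and a right stretch of 18194. The level of a tile is log2 of the processed Cy5 signal over the processed Cy3 signal, minus the median of the array. Cy5 marked DNA recovered with an anti-FLAG gel and Cy3 marked whole-cell extract DNA, so 0 is the array's middle ratio and the values are relative. The series holds 4 genotypes with 1 array each, and no genotype is compared with another below.

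The wild-type cells carried the plasmid pINV1-H3.2-FLAG, as do the other genotypes per the labels. They grew in 8% glucose, were held with 15 mM hydroxyurea for 4 h, and were then moved to 4% sucrose, with hydroxyurea still present, for 2 h to switch on the tagged H3. Crosslinking was with 1% formaldehyde for 20 min, and sonication gave DNA fragments of 400 to 600 bp. The tagged histone therefore entered chromatin of cells arrested in S phase, beside the untagged H3 of the cell's own genes, and the plasmid itself carries H3.2 coding DNA. With 1 array there was no replicate, so no test was made and nothing below carries a p-value.

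Histones can be exchanged outside of bulk DNA replication, when transcription, remodellers or histone chaperones evict nucleosomes and rebuild them. A tagged H3 made for a short time is read as a map of where new nucleosomes were built. Promoters of active yeast genes commonly hold a region poor in nucleosomes, which has little H3 of any age. Hydroxyurea blocks the supply of nucleotides and stalls replication.

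The array was bright over the tiles described: 99.7% were well above background in both channels, none was saturated, and 7 outlier spots were left out. The spread of a single spot, taken from second differences of neighbouring tiles, was an SD of 0.10 for the level, against 0.39 for the Cy3 signal and 0.43 for the Cy5 signal. Probes of the plus and the minus strand had the same median level (0.0047 each). Genes were placed on the array by an inferred shift of the RefSeq annotation, since the file header leaves its genome build cell blank, and gene coordinates below are those of the array.

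The sequences shown first are those of the shortest stretches between diverging genes, where low and high levels lay closest to gene starts, and those of the deepest trough and of the highest peak outside any annotated gene. They were read from the RefSeq genome ASM294v3, plus strand, 5′ to 3′, at coordinates of that assembly. They were chosen after their levels were seen. Capitals mark matches, on either strand, to any of 7 motifs that were searched for (the TATA box, TATAAA; the HomolD box CAGTCACA and the HomolE box of ribosomal protein genes; the MluI cell cycle box, ACGCGT; the AACCCT box of histone genes; the core TGACGT bound by Atf1 family factors; and the heat shock element).
The 3 lowest of the 31 divergent stretches of up to 300 bp lay between sfi1 and irs1 (level -0.69 over 4 tiles), slu7 and pmt3 (-0.67, 4 tiles), and suc1 and rsc4 (-0.52, 3 tiles).
sfi1 to irs1, chrII:1368885-1369078: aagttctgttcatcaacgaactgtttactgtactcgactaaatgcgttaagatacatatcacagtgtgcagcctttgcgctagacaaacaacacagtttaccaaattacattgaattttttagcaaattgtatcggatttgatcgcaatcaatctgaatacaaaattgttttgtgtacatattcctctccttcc
slu7 to pmt3, chrII:2506674-2506844: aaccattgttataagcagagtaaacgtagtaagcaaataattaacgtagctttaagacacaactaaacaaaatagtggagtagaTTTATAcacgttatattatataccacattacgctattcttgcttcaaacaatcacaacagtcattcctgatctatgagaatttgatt
suc1 to rsc4, chrII:1088833-1088964: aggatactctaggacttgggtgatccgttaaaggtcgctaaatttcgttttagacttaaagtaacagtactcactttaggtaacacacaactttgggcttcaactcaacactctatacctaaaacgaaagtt
The highest such stretch lay between hhf2 and hht2, which encode histones H4 and H3 (0.82, 3 tiles). It holds 2 adjacent copies of AACCCT, read on its minus strand, at bases 76 to 81 and 82 to 87.
hhf2 to hht2, chrII:1364985-1365118: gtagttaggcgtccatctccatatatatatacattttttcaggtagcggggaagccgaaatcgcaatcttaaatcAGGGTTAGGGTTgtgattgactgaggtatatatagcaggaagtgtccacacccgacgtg
The 250 bases around the centre of the deepest trough, upstream of tdh1, hold TGACGT on both strands in overlap, at bases 188 to 193 and 190 to 195.
trough upstream of tdh1, chrII:2807116-2807365: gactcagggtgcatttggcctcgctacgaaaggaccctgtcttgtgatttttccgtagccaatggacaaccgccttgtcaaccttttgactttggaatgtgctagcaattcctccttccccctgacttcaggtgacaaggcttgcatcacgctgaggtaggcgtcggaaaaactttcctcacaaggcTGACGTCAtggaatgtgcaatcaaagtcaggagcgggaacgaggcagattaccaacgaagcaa
The 250 bases around the centre of the peak between ubp11 and pat1 hold none of the motifs, and their longest run of A or of T is 7 bases.
peak between ubp11 and pat1, chrII:1680316-1680565: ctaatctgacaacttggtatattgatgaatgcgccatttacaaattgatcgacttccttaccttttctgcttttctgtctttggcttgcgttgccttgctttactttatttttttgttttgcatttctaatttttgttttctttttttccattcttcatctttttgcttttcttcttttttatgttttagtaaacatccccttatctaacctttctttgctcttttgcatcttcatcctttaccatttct
The 4 divergent stretches have a GC content of 35.1%, 30.4%, 37.9% and 44.0% in the order given, the trough 50.8% and the peak 31.6%.

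The level varied over most of the arms within a narrow range. Its SD over tiles was 0.35, or more than 3 times the SD of a single spot, and the 5th and 95th percentiles were -0.49 and 0.66. High tiles outnumbered low ones, with 9.56% at 0.5 or above and 4.56% at -0.5 or below, and 319 tiles at 1 or above against 29 at -1 or below. The lowest tile was at -2.09 and the highest at 2.28. The median was -0.031 in the left stretch, -0.023 in the middle stretch and 0.051 in the right stretch. The quartiles were -0.23 and 0.18 in the left, -0.23 and 0.22 in the middle and -0.17 and 0.28 in the right.

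Averaged over windows, the landscape flattened slowly. The SD of window medians was 0.31 for windows of 1000 bp, 0.24 for 5000 bp, 0.15 for 20000 bp and 0.099 for 50000 bp. The lowest 20 kb window, from 1889171 to 1909170, stood at -0.40 and held all of tra1, which encodes a subunit of the SAGA complex. The next lowest, at -0.28, ran from 1849171 to 1869170. The highest window, at 0.41, ran from 2109171 to 2129170, beside the excluded mating-type tiles. It was followed by the window from 1540011 to 1560010 (0.36), which holds isp4, an oligopeptide transporter gene. Across the 99 windows of 20 kb the level and the Cy3 signal had r = -0.14, as a description of windows that share 1 array.

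A running mean over 5 tiles gave 190 peaks (at least 0.5 high with a prominence of at least 0.3) and 124 troughs (-0.5 or lower, same prominence). Peaks had a median height of 0.71 and 26 of them reached 1. Troughs had a median of -0.62, and those upstream of tdh1 and between yea4 and ipa1 alone passed -1. The right stretch had the most peaks and the fewest troughs: 10.7 peaks per 100 kb, against 8.85 in the left and 8.31 in the middle, and 4.51 troughs against 7.85 and 7.48. The same cutoffs were used in all 3 stretches, while the median of the right stretch was higher (0.051, against -0.031 and -0.023). The part of that offset in the counts was not tested.

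**Figure D1:**
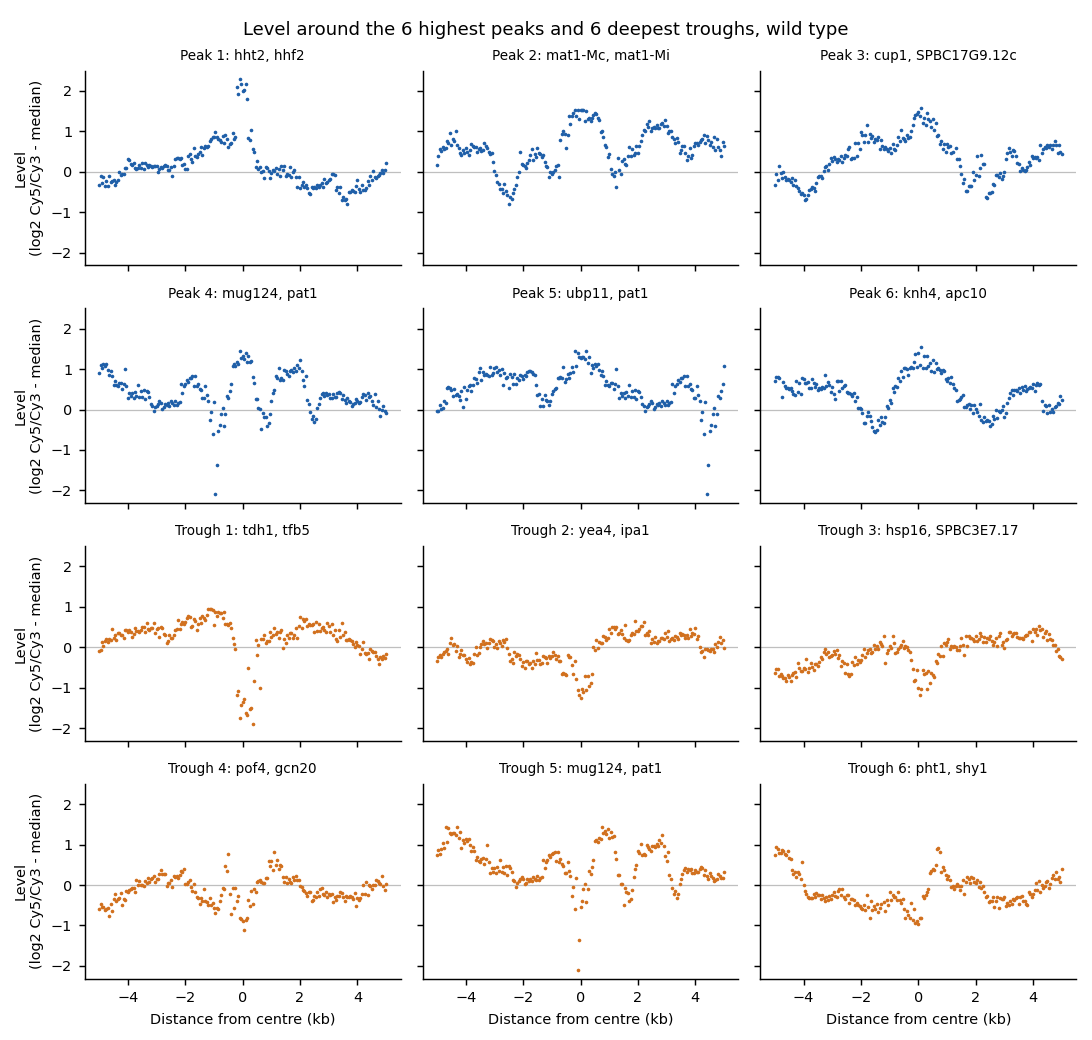
Level of single tiles (y axis, log2 Cy5/Cy3 minus the array median) against distance from the centre (x axis, kb) for the 6 highest peaks (blue) and the 6 deepest troughs (orange), named by the nearest genes. The peak at hht2 is a narrow block of tiles near 2 with an edge on either side, whereas the peaks near cup1 and knh4 rise and fall over 1 kb or more.

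The highest peak, at 2.13, lay inside hht2, which encodes H3.2, the histone that the plasmid also encodes. Its 411 bp coding sequence runs from 1366058 to 1366468 in the array's coordinates. The 7 tiles wholly inside it had levels between 1.92 and 2.28 (mean 2.09, SD 0.12). The 4 tiles of the gene outside the coding sequence had levels between 0.48 and 1.04, and the 3 tiles over its edges had between 0.84 and 1.81. The Cy3 extract signal moved with the same edges: its median was 1.44 above the array median inside the coding sequence, a value that 1.28% of all tiles reach, and -1.69 in the rest of the gene. The part of plasmid DNA in this peak was not tested. The neighbouring hhf2 gene, which encodes histone H4 and is not named in the plasmid's label, had a mean level of 0.79 over 16 tiles (SD 0.10, from 0.60 to 0.98), and its 5 tiles inside coding sequence had a median Cy3 signal of 0.54. The divergent stretch between the genes, whose sequence with the paired AACCCT copies is given above, stood at the same height as hhf2.

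The other leading peaks spread over a wider stretch of DNA. The second, at 1.48, was centred on 2117941 in the long non-coding RNA SPNCRNA.388, next to mat1-Mc, a gene of the expressed mating-type cassette. The third, at 1.45, lay 950 bp upstream of cup1, in SPNCRNA.394. Then came a peak inside mug124 at 1.34 and the peak between ubp11, a ubiquitin hydrolase gene, and pat1, the kinase gene that holds back meiosis, at 1.31. The latter sits in none of the annotated genes, 1837 bp upstream of ubp11. The peak in knh4 reached 1.29. Peaks at 1.22 between but2 and rtn1 and at 1.21 upstream of SPBC409.08, a spermine family transporter gene, both fell in long non-coding RNAs. The 9th to 12th peaks lay within the protein-coding genes SPBC23G7.10c (1.19), SPBC337.11 (1.17), SPBC365.16 (1.15) and ubi4, the polyubiquitin gene (1.14). All 5 tiles of the ubi4 peak have a sequence found more than once in the reference, and the SPBC365.16 peak has a Cy3 signal of -2.22 with 1 tile not well above background.

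The deepest trough, at -1.48, was centred on 2809041, which is 354 bp upstream of the annotated start of tdh1, a glyceraldehyde-3-phosphate dehydrogenase gene of glycolysis, in SPNCRNA.1550. The tdh1 gene itself had a mean level of 0.16 over 29 tiles (SD 0.33), so the trough ended near its start. The second, at -1.13, lay between yea4 and ipa1, with 3 of its tiles not well above background in both channels. The third, at -0.92, was 249 bp upstream of hsp16, a small heat shock protein gene. The whole 803 bp between hsp16 and SPBC3E7.17 had a mean of -0.77 over 16 tiles, the lowest of all intergenic stretches, while hsp16 itself stood at -0.019. The fourth, at -0.90, lay 159 bp inside pof4, which had levels between -1.12 and 0.82. The fifth, also -0.90, lay between mug124 and pat1, with 2 of its tiles not well above background, and the lowest single tile of the arms belongs to it (-2.09, with processed signals of 37.2 in Cy3 and 8.59 in Cy5).

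The next troughs were shallower, between -0.89 and -0.85. They lay 297 bp upstream of pht1, the H2A.Z histone variant gene, in SPBC32H8.15, 267 bp upstream of bdc1, next to ned8, 323 bp upstream of kgd1, between skp1 and uch2, and inside tra1. Of these 12 troughs the first 11 had a Cy3 extract signal between -3.85 and -1.28, below the array median, and the one inside tra1 had a Cy3 signal of 0.38. Under normexp background correction, which draws dim signals together, those 11 were between -0.56 and -0.31, with the tdh1 trough at -0.45, and the one inside tra1 was at -1.22. The depth of the troughs in dim DNA thus depended on the processing, by more than 1.5 times. The normexp values also rest on median signals in place of processed ones, and the steps were not separated. The part of the low extract signal in them was not tested. The troughs near pht1 and ned8 lay 212 bp and 328 bp from a tRNA gene. Over all 124 troughs, 10 had a tRNA gene within 1 kb, against 2 of 190 peaks, or 8.06% and 1.05%, where 1.56% of all tiles lay as near to one.

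Peaks and troughs differed in where they fell. Of the peaks, 65.3% were inside 1 protein-coding gene, 18.9% in a long non-coding RNA only and 10% outside any annotated gene, against 71.9%, 12.2% and 8.19% of all tiles. Of the troughs, 40.3% were inside 1 protein-coding gene, 23.4% in a long non-coding RNA only and 28.2% outside any gene. Within 300 bp of an annotated protein-coding start lay 21.1% of peaks, 29.8% of troughs and 24.5% of all tiles. These shares are descriptions of 1 array. All 190 peaks stayed at 0.3 or more, and all 124 troughs at -0.3 or less, once the level was corrected for the GC content of the tiles. Under normexp, 162 peaks and all 124 troughs were past these values, and under loess 186 peaks and all 124 troughs. The bounds of 0.3 and -0.3 are looser than the cutoffs that called the peaks and troughs, so most were likely to stay past them. Called anew with the first cutoffs, there were 175 peaks and 119 troughs after GC correction. Under normexp there were 335 and 127, and under loess 164 and 83. How many of these lay at the same places was not tested.

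Many high tiles formed broad blocks. The running mean stayed at 0.5 or above in 258 stretches that held 8.94% of tiles, with a median width of 350 bp, and 67 of them were at least 1000 bp wide. It stayed at -0.5 or below in 172 stretches with a median width of 300 bp, of which 17 reached 1000 bp. The widest high block, chosen as such after its values were seen, ran 6650 bp from 2527441 to 2534041, over the end of alp4, a gamma tubulin complex gene, and over SPBC365.16 (mean 0.85 over 133 tiles, lowest tile 0.44). Blocks of 3850 bp beside isp4 and rpl26 (mean 0.76), 3500 bp over grp2 and ish1 (0.79) and 3450 bp at cup1 (0.87) followed. The widest low block, 3050 bp, lay inside tra1 (mean -0.69 over 61 tiles, highest tile -0.40), and the next, 2450 bp, lay in lvs1 and esf2 (-0.61). Both had a Cy3 signal above the array median, 0.35 and 0.59.

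The spacing of the peaks was irregular. Neighbouring peaks lay a median of 5650 bp apart, with quartiles of 2975 and 13125 bp and a coefficient of variation of 1.11. Troughs were 8850 bp apart (quartiles 4700 and 19600 bp, coefficient of variation 1.15). The midpoints of neighbouring protein-coding genes were a median of 2089 bp apart. The autocorrelation of the level was 0.91 between adjacent tiles, which overlap in sequence, 0.65 at 500 bp, 0.42 at 1 kb and 0.13 at 5 kb, and it fell below 0.5 at 800 bp and below 0 at 10400 bp. Up to a lag of 20 kb, the curve over all tiles had no later maximum with a prominence of at least 0.02. The first such maximum of a single stretch was at 5900 bp in the left (0.13), 12100 bp in the middle (-0.0020) and 4950 bp in the right (0.091), so these maxima did not share a lag. With a running median over 10 kb taken away first, they were at 6000 bp in the left (0.10), 7100 bp in the middle (0.021) and 7150 bp in the right (0.030), low values all. The curve over all tiles then had such a maximum too, at 6000 bp (0.042), after a fall to -0.21 at 3600 bp. How much of these maxima comes from the subtraction was not tested.

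**Figure D2:**
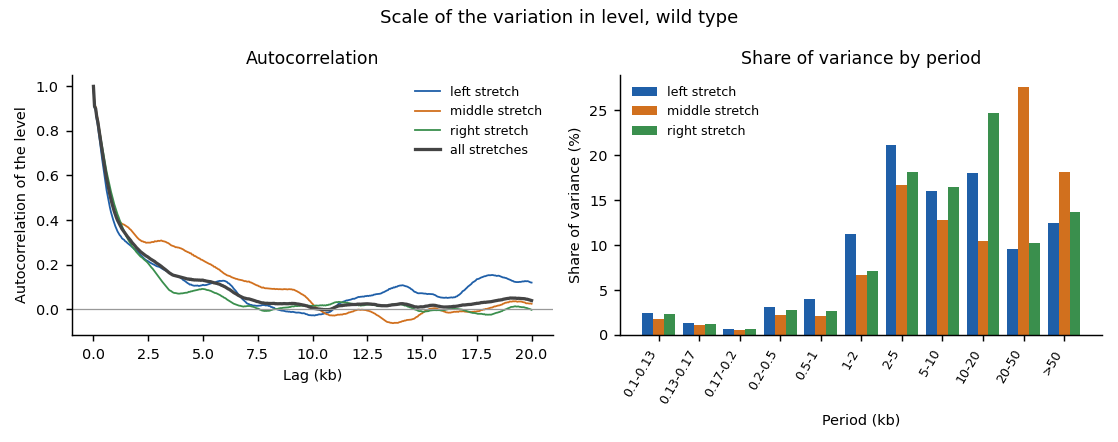
Left, autocorrelation of the level (y axis) against lag (x axis, kb) for the 3 stretches and for all tiles together. Right, share of the variance of the level (y axis, %) by period (x axis, kb, classes of unequal width) in each stretch. The autocorrelation of all tiles falls to 0.42 at 1 kb and stays under 0.1 beyond 7 kb, and the classes from 130 to 200 bp hold little of the variance.

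By period, most of the variance lay between 1000 and 50000 bp. Periods of 2000 to 5000 bp held 21.1%, 16.7% and 18.1% of it in the left, middle and right stretch. Periods of 20000 to 50000 bp held 27.6% in the middle stretch and 9.52% and 10.2% in the others, and those of 10000 to 20000 bp held 24.7% in the right. The class of 130 to 170 bp, which takes in the length of nucleosomal repeats in this yeast, held 1.36%, 1.06% and 1.25%. Fragments of 400 to 600 bp and a tile every 50 bp limit what such periods can show. Within the 355 genes of 2 kb or more, after each gene's own mean was taken away, the autocorrelation was 0.60 at 200 bp, 0.46 at 300 bp and 0.32 at 400 bp.

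Gene bodies had a slightly higher median than the DNA between genes, a difference whose size and sign depended on the processing. Tiles in 1 protein-coding gene had a median level of 0.012 (28623 tiles, quartiles -0.19 and 0.23), and tiles in no annotated gene had -0.056 (3257 tiles, quartiles -0.28 and 0.20). The difference of 0.068 was 0.19 under normexp, -0.018 after loess within the array, and -0.0048 with long non-coding RNA tiles counted as intergenic. Tiles in a long non-coding RNA only were the highest class, at 0.082 (4836 tiles), and after loess (0.16). Under normexp they stood at 0.0040, below tiles in 1 protein-coding gene (0.042). The shares at 0.5 or above were 8.66% in 1 protein-coding gene, 18.6% in a long non-coding RNA only and 9.15% in none. The shares at -0.5 or below were 3.79%, 5.27% and 9.58%. Tiles in overlapping protein-coding genes stood at -0.078 (2938 tiles). The Cy3 extract signal differed far more between the classes: its median was 0.092 in 1 protein-coding gene, -0.82 in a long non-coding RNA only and -0.99 in none.

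The level rose with the GC content of the tile. Its median was -0.060 in tiles with 25% GC or less, -0.0054 between 35 and 40%, and 0.24 above 50% (r = 0.18 over 39787 tiles that share 1 array). The tiles in none of the genes have a median GC content of 30%, against 38.3% in 1 protein-coding gene, and both classes rose with GC. In the class of 40 to 45% GC, long non-coding RNA tiles stood at 0.26 (493 tiles), tiles in 1 protein-coding gene at 0.059 and tiles in none at -0.014. Long non-coding RNA tiles were above both other classes in all 7 classes of GC content.

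A shallow dip marked both ends of protein-coding genes. Over 869 genes the median level was lowest 150 bp upstream of the annotated start, at -0.085, against 0.055 in the gene body, a difference of -0.14. At gene ends the lowest step was at the end itself, -0.046 against 0.060 in the body, a difference of -0.11. The quartiles of the tiles were wider than either dip. After correction for GC content the dips were -0.088 and -0.057, after loess -0.058 and -0.045, and under normexp -0.23 and -0.18, so their depth depended on the processing by more than 1.5 times. Both channels fell far more than their ratio, by 0.81 in Cy3 and by 0.97 in Cy5 at the start, where the values are medians of log2 signals. In the 42 genes of at least 1500 bp with 500 bp free of other genes, the dip at the start was -0.25.

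**Figure D3:**
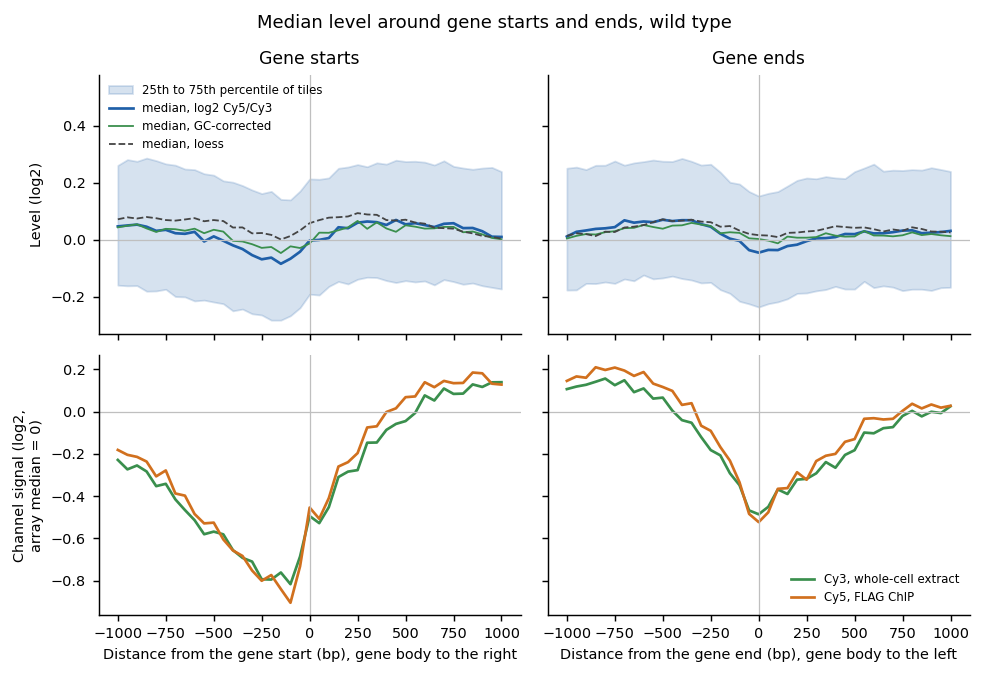
Median over 869 protein-coding genes (y axes, log2) against distance (x axes, bp) from the annotated gene start (left) and gene end (right). The top panels show the level with the quartiles of tiles as a band, together with the GC-corrected and the loess values. The bottom panels show the Cy3 extract and Cy5 ChIP signals, both lowest near gene starts and ends, where the level dips by 0.14 and 0.11 in that order.

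Long genes had lower levels than short ones, and the lowest in their middle. The median of the gene means was 0.14 for 142 genes under 1 kb (SD between genes 0.32), 0.040 for 372 genes of 1 to 2 kb, -0.00072 for 306 of 2 to 4 kb and -0.14 for 49 genes of 4 kb or more (SD 0.24). Of the 49 long genes 79.6% were below 0, against 31.7% of those under 1 kb and 45.7% of all genes. The distance between the medians of the longest and the shortest class, -0.27, is about the size of the SD between genes of a class. Over 869 genes length and level had a Spearman's rho of -0.21, and -0.22 after GC correction. The Cy3 signal ran the other way, with class medians from -0.36 under 1 kb to 0.28 in the long genes, and the Cy5 signal alone was higher in the long genes than in the short ones by 0.26.

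With each long gene divided into 10 equal parts from start to end, the median level of tiles was -0.069 in part 1, -0.32 in part 6 and -0.059 in part 10. In the same parts the Cy3 signal was -0.27, 0.52 and -0.12, and the Cy5 signal -0.32, 0.17 and -0.17, so both channels were brighter in the middle and Cy3 more so. The central 50% of the gene was below the outer 25% on either side in 38 of 49 long genes, by a median of -0.13 (from -0.47 to 0.23). In the largest, tra1 of 11069 bp, 96.8% of 221 tiles were below 0, with -0.62 in its central 50% and -0.41 outside it. The long genes with the lowest means after it were sip1, an AP-1 accessory protein gene (-0.43), lvs1 (-0.42), dhx29 (-0.41) and mor2 (-0.40). prp17 and fab1, at -0.38 each, overlap over nearly their whole length in the annotation and share their tiles. cut3, which encodes a condensin subunit, stood at -0.35. At the other end of the long genes were the retrotransposons Tf2-10 (0.56) and Tf2-9 (0.55) and map4, an agglutination protein gene (0.55), all chosen here by rank among the long genes. The Tf2 tiles had a Cy3 signal of 2.47 and 2.52, and the median of both elements was 0.19 after loess. How much of their signal came from other copies of the element was not tested, so their levels may not belong to these loci alone.

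**Figure D4:**
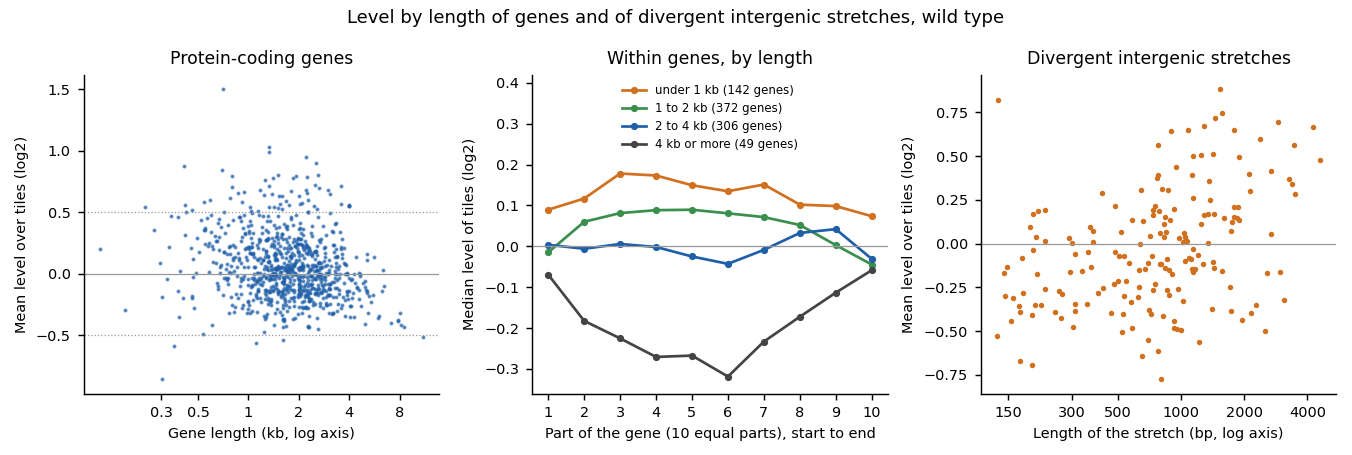
Left, mean level (y axis, log2) of 869 protein-coding genes against gene length (x axis, kb, log axis), with dotted lines at 0.5 and -0.5. Centre, median level of tiles in 10 equal parts of the gene for 4 length classes, where genes of 4 kb or more stand at -0.32 in part 6. Right, mean level of 180 divergent intergenic stretches against their length (x axis, bp, log axis).

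Between divergently transcribed genes the level rose with the length of the stretch, and the flanking genes were also higher beside the longest stretches. The 180 divergent stretches had a median of -0.071 (SD 0.34), the 257 tandem ones -0.037 (SD 0.25) and the 47 convergent ones 0.0043 (SD 0.31), which differ by less than the spread between stretches. The order turned among stretches of at least 500 bp (0.018, 0.0071 and -0.058) and in the right stretch alone (0.039, 0.010 and 0.0043), and after loess all 3 were above 0. Divided by length, divergent stretches of up to 300 bp stood at -0.27 (31 stretches, 23 below 0), those of 301 to 500 bp at -0.14 (20), of 501 to 1000 bp at -0.11 (62), of 1001 to 2000 bp at 0.11 (49) and over 2000 bp at 0.32 (18, of which 6 were below 0). Length and level had r = 0.39 over the 180 stretches, and 0.39 after GC correction. The order was not found in every part of the chromosome: stretches over 2000 bp were higher than those of up to 300 bp by 0.64 in the left stretch and 0.56 in the right, and lower by -0.037 in the middle. Tandem stretches over 2000 bp had a median of 0.38, with 7 members.

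Intergenic stretches of each orientation were mostly lower than the genes on either side, in 123 of 180 divergent, 180 of 255 tandem and 34 of 47 convergent stretches, by a median of -0.12, -0.093 and -0.11. Among the divergent ones the share varied with length. The stretch was below the mean of its flanking genes in 29 of the 31 of up to 300 bp, by a median of -0.21. For 301 to 500 bp this held in 14 of 20, by -0.097, and for 501 to 1000 bp in 49 of 62, by -0.15. In the 49 of 1001 to 2000 bp the median difference was 0.049 and 21 were below their genes. In the 18 over 2000 bp it was -0.076 with 10 below. The flanking genes had medians of -0.054, -0.078, 0.026, 0.066 and 0.25 from the shortest class to the longest. The difference from the genes thus did not rise steadily with length. The 3 lowest short stretches are those whose sequences are given above, between sfi1 and irs1 (the spindle pole body gene sfi1), slu7 and pmt3 (pmt3 encodes the fission yeast SUMO), and suc1 and rsc4 (rsc4 encodes a subunit of the RSC remodeller). The hhf2 to hht2 stretch was the only one of the 31 above 0.5. The highest long divergent stretches were mrpl39 to str1 (0.69 over 58 tiles; str1 encodes a siderophore transporter), ubp11 to pat1 (0.67 over 85 tiles) and ess1 to aly2 (0.60 over 47 tiles). The lowest were mrpl35 to atf21 (-0.50 over 50 tiles) and cox7 to rep2 (-0.39 over 43 tiles), both in the middle stretch.

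Of the 869 protein-coding genes with at least 3 tiles, 63 had a mean level of 0.5 or above (7.25%) and 5 had -0.5 or below (0.575%). Just inside the upper threshold were SPBP23A10.11c and rec15, both at 0.50, and just outside alp4 and SPBC1711.09c at 0.49. srb11 and tra1 (-0.54 and -0.52) were just inside the lower one, and ned8 and pht1 (-0.49 and -0.48) just outside. Of the high genes, 53 were high after GC correction, 59 after normexp background correction and 49 after loess, and all 5 low genes were low after GC correction. Over all genes, normexp gave 111 high genes, and loess and the correction for the GC content of 500 bp gave 3 low genes each.

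After hht2 (mean 1.5, SD between tiles 0.69), the highest genes were SPBC23G7.10c, annotated as an NADH-dependent flavin oxidoreductase (1.03, SD 0.16, 26 tiles), and ubi4 (0.99, SD 0.27, 27 tiles). Then came knh4 (0.95), SPBC365.16 (0.90), SPBC1921.04c (0.88, 8 tiles) and ess1 (0.85). The overlapping neighbours grp2 and ish1, for a Golgi and a nuclear envelope protein, were both at 0.80, as was hmt2, a sulfide-quinone oxidoreductase gene. hhf2 and ubp11 (0.79 each) completed the 12. All tiles of each of these 12 genes were above 0, and the lowest single tile among them was at 0.22. The Cy3 signals of the 12 ranged from -0.88 to 0.89.

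The lowest gene was SPBC32H8.15, an uncharacterised gene of 306 bp (-0.86 over 6 tiles, from -0.97 to -0.79), whose Cy3 signal was also low (-1.78). SPBC83.19c followed at -0.59 over 7 tiles. Among named genes skp1, a subunit of SCF ubiquitin ligases, stood at -0.57 with all of its 22 tiles between -0.70 and -0.42, the smallest spread of any protein-coding gene with at least 20 tiles (SD 0.064). Next were srb11, the cyclin of the Mediator kinase module (-0.54), tra1 (-0.52), ned8, the ubiquitin-like modifier of cullins (-0.49), and pht1 (-0.48). csc2, syo2, gid2 (an E3 ubiquitin ligase subunit), sip1 and csc1 stood between -0.45 and -0.43. The ranking depended on the processing. Under normexp SPBC32H8.15 stood at -0.47, no longer low, and tra1 at -0.69. After loess skp1 and srb11 were no longer low, at -0.49 and -0.45.

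The lists below were taken from the annotation by product name or symbol, with earlier results of these data known. They are given as counts and medians beside the median of all 869 genes, 0.027. Of those 869 genes, 472 were above 0 and 7.25% were high. Of the 24 measured genes of cytosolic ribosomal proteins 23 were above 0, with a median of 0.25, and rpl26 (0.52) and rpl4302 (0.51) were high. The exception was rps2501 at -0.28, and rpl2502 (0.26) and rps2302 (0.24) stood beside the median. The list's median fell by more than 1.5 times to 0.17 after GC correction and to 0.090 after correction for the GC content of the surrounding 500 bp. Genes of mitochondrial ribosomal proteins had a median of -0.091 (10 genes, 4 above 0, from -0.35 at mrpl35 to 0.25 at mrpl10).

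Of the 14 tRNA genes, measured with 250 bp on either side, 13 had a mean below 0, and the median of the means was -0.37. A leucine tRNA gene at 2770057 had a mean of -0.088 (SD 0.67, 11 tiles) but a median over tiles of 0.056. Its stretch holds the single tile at -1.99 that is described under other observations. The lowest was a proline tRNA gene at 2321092 (-0.70, 11 tiles), and the exception by mean was imt06, an initiator methionine tRNA gene (0.24, and -0.18 under normexp). The same tRNA stretches had a median Cy3 signal of -1.61. The 10 measured snRNA and snoRNA genes had a median of 0.028, with sno20 (1.04), snoU14 (0.61) and snR92 (0.60) high and snu1, the U1 RNA gene, at -0.022. These 3 high genes rest on 4, 3 and 3 tiles, and sno20 lies within SPBC1921.04c, itself a high gene. The snu1 tiles were dim, with a Cy3 signal of -1.99. Of 1160 long non-coding RNA genes, many of which overlap protein-coding genes, 106 were high (9.14%) and 31 low (2.67%), with a median of 0.029. For comparison, 7.25% of protein-coding genes were high and 0.575% low, and 9.56% and 4.56% of all tiles.

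**Figure D5:**
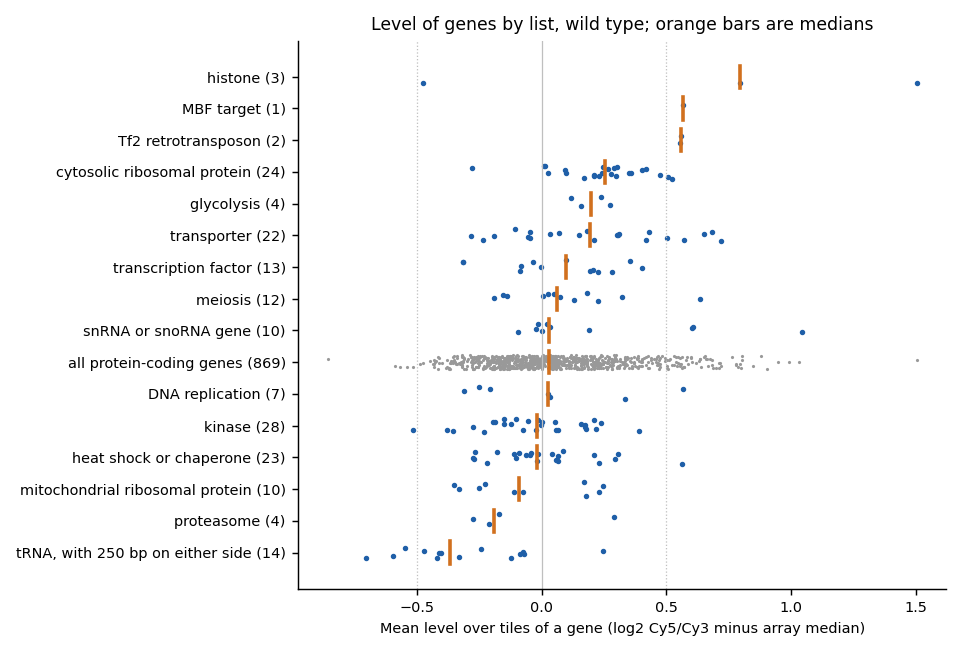
Mean level of each measured gene (x axis, log2 Cy5/Cy3 minus the array median) by list (y axis, number of genes in brackets), with orange bars at list medians and dotted lines at 0.5 and -0.5. tRNA stretches lie lowest, 23 of 24 cytosolic ribosomal protein genes lie above 0, and the transporter genes spread from -0.28 to 0.72.

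All 4 glycolysis genes measured were above 0: fba1, for aldolase (0.27), pfk1 (0.24), tdh1 (0.16) and eno101, for enolase (0.12). After GC correction their median fell from 0.20 to 0.061, with pfk1 at 0.12, fba1 at 0.11, tdh1 at 0.012 and eno101 at -0.062. Transporter genes had a median of 0.20 over 22 genes (0.32 under normexp, where all genes had 0.084), and 5 of them were high, against 7.25% of all genes: isp4 (0.72), str1 (0.68), SPBC409.08 (0.65), sul1, a sulfate transporter (0.57), and SPBC23G7.13c, a urea transporter (0.50). The lowest was flx1, a FAD transporter, at -0.28. Of 12 genes named for meiosis 9 were above 0 (median 0.061), led by mug124 (0.64) and ending with mug176 (-0.19). The median was 0.097 for 13 transcription factor genes, from rrn11 (-0.32) to hmo1 (0.40), -0.019 for 28 kinase genes, from tra1 (-0.52), which is a pseudokinase, to pat1 (0.39), and -0.019 for 23 heat shock and chaperone genes, from pac3 (-0.27) to aha1, an Hsp90 activator (0.56).

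The DNA replication genes did not stand together. cdc18, the loader of the MCM helicase and the only measured member of the list of MBF targets, was high (0.57), orc6 stood at 0.33, orc2 and orc4 at 0.033 and 0.024, and orc1, mcm2 and sld5 at -0.21, -0.25 and -0.31. Of 4 proteasome genes rpt6 stood at 0.29 and mts4, rpt2 and pac3 between -0.27 and -0.17. The histone genes measured were hht2 (1.5), hhf2 (0.79) and pht1 (-0.48), so the H2A.Z variant gene stood at the other end from the genes of H3 and H4. The hht2 mean includes coding tiles in which the part of plasmid DNA was not tested, and its 4 tiles outside the coding sequence had a mean of 0.72. The pht1 tiles were dim (Cy3 signal -1.22), and pht1 stood at -0.37 under normexp.

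Levels were uneven inside some genes and flat in others. Among genes with at least 20 tiles and other than hht2, the SD between tiles was largest in mug124 (0.56, tiles from -0.48 to 1.44), pof4 (0.52), SPBC25B2.08 (0.46), wwm1 (0.42), sec22 (0.41) and SPBC21D10.08c (0.40). In SPBC21D10.08c a single tile at -2.08 with bright signals in both channels stands apart, while its highest tile is at 0.41. After skp1, the SD was smallest in ctu1, mtd1, ero11, rpl401 and nup85, between 0.06 and 0.08. That is below the spot SD of 0.10, which was taken between neighbouring tiles and so can hold more than the noise of a spot. Over all 869 genes the SD between tiles rose with length (Spearman's rho 0.41).

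Levels of neighbouring genes were weakly correlated. The correlation of their means was r = 0.28 over 666 neighbouring pairs, 0.35 for divergent, 0.33 for convergent and 0.21 for tandem pairs, and 0.047 for genes 10 apart. Neighbours share fragments, so these values are descriptions. Of the 63 high genes, which are 7.25% of all genes, 26 lay in 13 pairs of adjacent high genes. The number of pairs to be had at that share was not computed. These pairs include SPBC23G7.10c and mag2 (1.03 and 0.71), Tf2-10 and knh4 (0.56 and 0.95), isp4 and rpl26 (0.72 and 0.52), and tkt1 and hmt2 (0.55 and 0.80). Others are grp2 and ish1, which overlap and share tiles, and hhf2 and hht2, where the part of plasmid DNA was not tested. The limit given above for the Tf2 tiles holds for Tf2-10 here.

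Promoters of high and low genes were searched for the 7 motifs, from 250 bp before to 50 bp after each annotated start, on both strands. TATAAA was found in 44.4% of the promoters of the 63 high genes, in none of the 5 low genes and in 46.1% of all 869. TGACGT was found in 14.3% of high genes and in 5.52% of all, and the genes with it had a median level of 0.17 against 0.018 for those without. AACCCT was found in 9.52% of high genes and 10.8% of all, and ACGCGT in 1.59% and 3.45%. The HomolD box CAGTCACA was found in 62.5% of the 24 cytosolic ribosomal protein genes and in 2.30% of all, and members with it had a median level of 0.21 against 0.30 for members without. The HomolE box was found in 29.2% of them and in 13 of 869, and the heat shock element in 3 of 869 promoters. AACCCT can overlap the HomolE box. A match is a description of letters, and no match says nothing of the factor.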

How the data were processed

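The deposited scanner file of the wild-type array holds intensity per spot, per the file headers, as median signals and as processed signals that Feature Extraction (version 12.0.3.1) background-subtracted and scaled with 1 linear dye factor per channel. Its deposited log10 ratio column matched the processed signals with a median difference of 1.52e-07 in log2 over 43993 probes (largest 0.98), and was not used further. The deposited series matrix holds the linear Cy5 over Cy3 ratio and differed from the processed signals by at most 8.79e-09 (median 0.985, not centred). The genome build and the steps after scanning are not given in the sources used here.

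The level was log2 of processed Cy5 over Cy3 minus the array median, with 1227 control spots and outlier spots left out and no loess or quantile step. Median processed signals of the tiles were 1074 in Cy3 and 1052 in Cy5. The RefSeq annotation (ASM294v3, chromosome II) was placed by correlating the Cy3 signal with GC content at shifted positions: all 20 windows were best at a shift of 900 bp left of the centromere and 1800 bp right of it (r from 0.31 to 0.52; highest r over 100 bp away 0.33). Gene names rest on this inferred placement. A gene's value is the mean over tiles centred in it, at least 3; high is 0.5 and low -0.5. Named genes are the 12 highest and 12 lowest genes of at least 5 tiles, the 12 highest peaks and 12 deepest troughs, up to 6 members of each list by rank, and the 6 most and least variable genes of at least 20 tiles; wide blocks, long genes and intergenic stretches were named after their values were seen. The members and lists were chosen with earlier results of these data known. Functions for gene means, gene body against intergenic level, peaks and autocorrelation were tested on simulated data. The function for profiles around gene starts and ends was not. Alternatives were normexp (offset 50, on median signals, since the file holds no mean signals), loess (span 0.3), each channel alone, GC corrections, dim or repeated tiles left out, each stretch alone, and other thresholds and smoothing. R 4.3.3 with limma 3.58.1 and Python 3.11.15 with scipy 1.17.1 were used. The number of arrays, 1, limits the precision, and tiles are not replicates.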

Additional observations from a re-analysis of the deposited data

How the results depend on the processing

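No paired analysis was possible because there was 1 array per genotype, so no replicate was left out. Of 246 values under alternatives over 22 results, 189 moved by less than the SD of a spot (counts and spacings by less than 1.5 times), 51 moved further, and 6 reversed a result that was larger than the SD of a spot. Results smaller than that took the other sign in 19 more values, 25 in total. The cause was not tested unless said.

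With normexp, the gene body minus intergenic level was 0.19, long minus short divergent stretches 0.35, genes of 4 kb or more minus those under 1 kb -0.38, peaks 335 at a median spacing of 3650 bp, and high genes 111. With loess there were 3 low genes, and troughs were 16650 bp apart. With correction for the GC content of 500 bp there were also 3 low genes, an alternative chosen after the data were seen. Single channels are not ratios and vary far more. With Cy5 alone, gene body minus intergenic was 1.14, divergent, tandem and convergent stretches stood at -0.86, -0.74 and -0.49, and the dips at starts and ends were -0.97 and -0.64. Long minus short divergent stretches turned to -0.057 and long minus short genes to 0.26. There were 673 peaks and 854 troughs, 2300 and 1950 bp apart, 131 high and 129 low genes, and the autocorrelation at 1 kb was 0.11. With Cy3 alone the same values were 1.09, -0.88, -0.74, -0.45, -0.81, -0.54, -0.28 and 0.64, with 519 peaks and 767 troughs, 2875 and 2100 bp apart, 134 low genes and an autocorrelation of 0.13.

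In the right stretch alone, divergent stretches stood at 0.039 and troughs were 15075 bp apart. In the middle stretch alone, long minus short divergent stretches turned to -0.037. Genes of at least 1500 bp with 500 bp free around them had a start dip of -0.25. A running mean over 11 tiles left 82 troughs, 15650 bp apart. The autocorrelation at 1 kb was 0.12 after a running median over 10 kb was subtracted, and -0.24 within genes, where taking away each gene's mean forces negative values at long lags. At a threshold of 0.3 there were 141 high and 56 low genes.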

Other observations

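Some single tiles stood far from their neighbours. A tile at 2435661 to 2435720, at the end of SPBC21D10.08c, was at -2.08 with processed signals of 2007 in Cy3 and 467 in Cy5. A tile at 2770111 to 2770170, near ppk26, was at -1.99 with 868 and 215, and a tile at 2603561 to 2603620, near SPBC25B2.03, was at 1.98 with 216 and 836. All 3 were well above background and carried no outlier mark. The tiles at 2902411 to 2902470 and 2902661 to 2902720, upstream of SPBP4H10.14c, reached 1.61 and 1.58 with Cy3 signals of 6.83 and 8.24, not well above background.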
